A study of Mus musculus with 6 samples.

Results

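The glucocorticoid receptor, encoded by Nr3c1, and 9 genes known as its direct or early targets (Fkbp5, Tsc22d3, Zbtb16, Sgk1, Klf9, Dusp1, Cebpd, Errfi1 and Ddit4) were examined in the lungs of mouse pups at postnatal day 6. The genes were taken by name, with earlier results of these data known, and every array probe that carried 1 of these symbols was used. This gave 9 probes for 8 of the 10 genes, out of 25697 probes for 18138 symbols on the array. Zbtb16 and Cebpd were not analysed here. Male pups of strain FVB (FVB/N in the study's methods) labelled hSRY-ON were compared with age-matched male pups labelled hSRY-OFF, with 3 pups in each group, and each pup gave 1 Illumina BeadChip hybridised with RNA of the whole lung. The study asked how ectopic activity of the human sex-determining gene SRY alters organs outside the gonad, and the lung arrays addressed which transcripts differ there. Both labels refer to a transgene, Signalox-hSRY, of which the study placed a single copy at the H11 locus. In its silent form the ubiquitous CAG promoter drives a red fluorescent protein, and mice with this form are what the study names hSRY-OFF. After Cre recombination the same promoter drives FLAG-tagged human SRY together with EGFP, which is the hSRY-ON state. The hSRY-ON pups had transgenic fathers and Ddx4-Cre mothers, whose eggs supplied the Cre enzyme, and the pups chosen for the arrays lacked the Cre transgene itself. Because the study also speaks of control littermates without the transgene, the genotype of the hSRY-OFF pups is known here from their label alone. The promoter is active in most cells, so activation was not confined to the lung, and the study describes the hSRY-ON pups as growth-retarded with little milk in their stomachs. The transgene's own transcript was not analysed here.

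Glucocorticoids are adrenal steroid hormones that rise with stress and fasting and that drive maturation of the lung around birth. The hormone binds its receptor in the cytoplasm, where chaperones of the Hsp90 complex hold it ready. The receptor then enters the nucleus, binds palindromic response elements as a dimer and raises transcription of targets that feed back on the hormone, damp inflammation and shift metabolism. In the tissue itself, Hsd11b1 regenerates active corticosterone and Hsd11b2 inactivates it.

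The letters of the response element were looked for in the promoters, to show what the sequence of the genes described here looks like. RefSeq promoter windows (assembly GRCm38.p6, 250 bases before to 50 after each transcript start, 300 bases in all) were matched for 7 of the genes, with 15 windows, since several genes have more than 1 start. Zbtb16, Cebpd and Nr3c1 were not matched. Both strands were searched for the core palindrome of the glucocorticoid response element (GAACA, any 3 bases, TGTTC), for its inner part ACANNNTGT, which lies within every core match, and for the single site AGAACA, which can overlap a core match by all but its first letter. The core occurred in 19 of all 32851 windows (0.0578%), the inner part in 2249 (6.85%) and the single site in 6233 (19%). Among the 15 windows these numbers were 1, 2 and 4. All of these windows belonged to Sgk1, the gene with the most starts, except 1 Tsc22d3 window with a single site. The windows of Ddit4, Dusp1, Errfi1, Fkbp5 and Klf9 held no match. The counts therefore describe mainly Sgk1 and not the genes as a set. The window with the core belongs to Sgk1, and the match starts at position -188 relative to the transcript start. A Tsc22d3 window held the single site on the opposite strand, written TGTTCT, at -185. The Fkbp5 window held no match to any of these letters. The 250 bases upstream of the start are shown for the gene with the core and for the genes with the largest changes. They run 5′ to 3′ along the strand that reads in the direction of the transcript. Capitals mark the core in Sgk1 and the single site in Tsc22d3.
Sgk1, chr10:21993640-21993889, plus strand: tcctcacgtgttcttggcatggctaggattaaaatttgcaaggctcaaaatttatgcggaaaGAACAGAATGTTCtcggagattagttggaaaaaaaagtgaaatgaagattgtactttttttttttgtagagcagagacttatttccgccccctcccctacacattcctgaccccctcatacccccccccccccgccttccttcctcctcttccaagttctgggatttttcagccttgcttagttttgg
Tsc22d3, chrX:140600523-140600772, minus strand: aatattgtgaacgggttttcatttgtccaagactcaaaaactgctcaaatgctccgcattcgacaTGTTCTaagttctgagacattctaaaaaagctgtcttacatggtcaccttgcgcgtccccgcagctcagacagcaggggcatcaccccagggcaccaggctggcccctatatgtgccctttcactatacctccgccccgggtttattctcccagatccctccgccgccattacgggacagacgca
Fkbp5, chr17:28486150-28486399, minus strand: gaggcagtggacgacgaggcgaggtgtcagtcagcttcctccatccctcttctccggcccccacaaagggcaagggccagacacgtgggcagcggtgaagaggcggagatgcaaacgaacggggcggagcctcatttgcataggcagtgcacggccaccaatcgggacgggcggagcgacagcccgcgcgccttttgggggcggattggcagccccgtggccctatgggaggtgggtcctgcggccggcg
A match here describes the letters and is not a measurement of receptor binding. The lack of a match holds for the 300 bases of a window only, since sequence outside the windows was not searched.

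Values below are normalized log2 intensities, and a difference of 1 unit is a 2-fold change. A probe was called detected when its detection p-value, set by the negative control beads of the array, was under 0.05. Arrays correlated across probes at 0.991 to 0.993 within hSRY-OFF, at 0.972 to 0.98 within hSRY-ON and at 0.935 to 0.959 between the groups. The median SD of a tested probe was 0.13 in hSRY-OFF and 0.223 in hSRY-ON. All 10 lung marker genes examined, from surfactant protein C to Cdh5, were detected on at least 3 of the 6 arrays, which fits the tissue label. With 3 arrays in each group the number of arrays limits every estimate. The RNA came from whole tissue, so fewer cells of a type and less RNA per cell cannot be told apart in any result given here.

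Of the 7 glucocorticoid target genes that could be tested, 5 rose in hSRY-ON lungs. Of the 8 probes that passed the detection filter, for 7 genes, 6 probes for 5 genes passed the test as higher in hSRY-ON (limma, two-sided, threshold 0.05 after Benjamini-Hochberg adjustment over 13841 probes) and 0 as lower, and all 8 differences were above 0. At an unadjusted p under 0.05, counted by the brightest probe of each gene, 6 of the 7 genes were higher and 0 lower. That level was passed by at least 5656 of all 13841 tested probes, in either direction (limma), a wider background than at the adjusted threshold. The genes that rose were Fkbp5, Tsc22d3, Klf9, Sgk1 and Errfi1. Over all tested probes 13.6% were called higher and 13.3% lower, 26.9% in all. A rise of at least 2-fold that passed the test was seen for 5 of the 8 probes, against 5.51% of all probes. In 7 of the 8 probes every hSRY-ON array lay above every hSRY-OFF array, which held for 22.4% of all tested probes, and in 0 of the 8 did every hSRY-ON array lie below, which held for 24.1%. The median change of the 8 probes was 1.25 on the log2 scale, where that of all tested probes was -0.03. Because the genes were chosen with earlier results of these data known, these counts are a description. Ddit4 and Dusp1 were not called, and Nr3c1 itself was not detected.

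**Figure D1:**
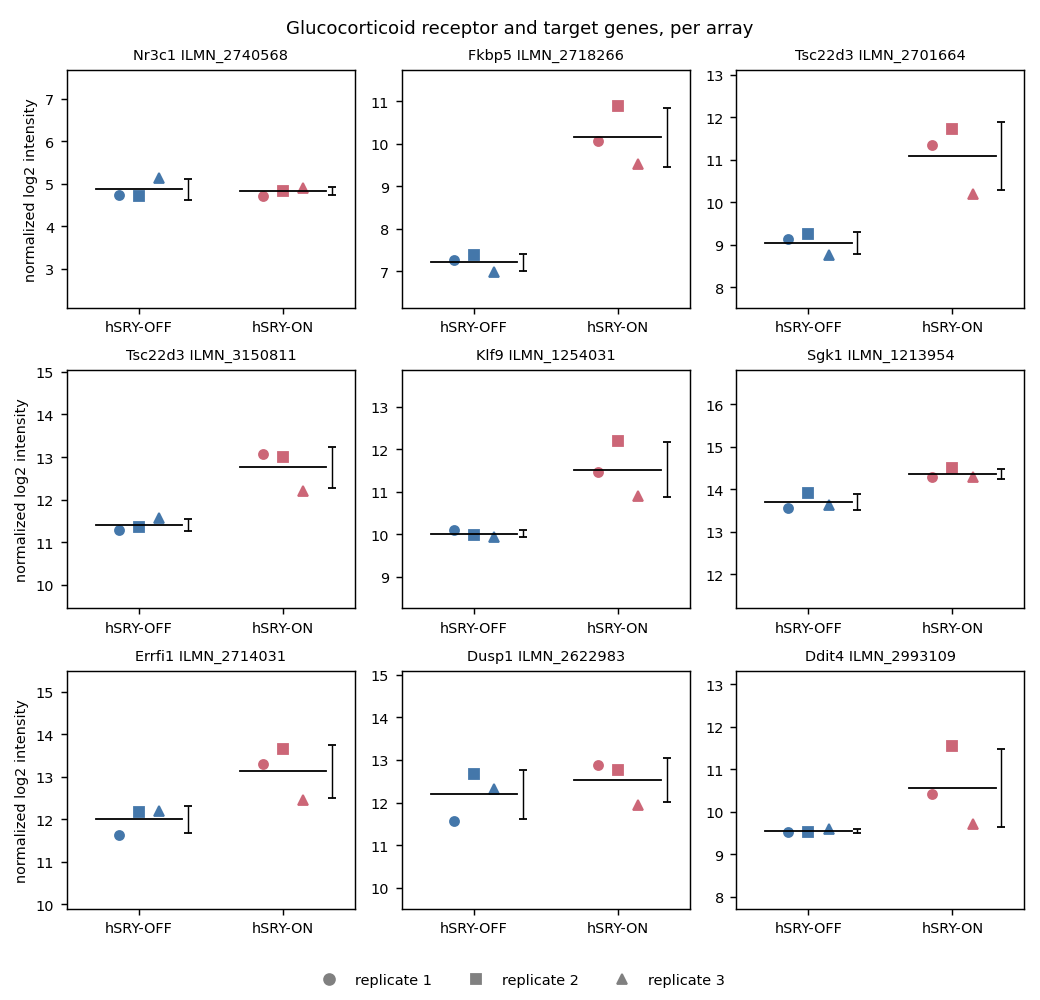
Normalized log2 intensity (vertical axes, each spanning the same range) of every probe of the receptor and its targets on the 3 hSRY-OFF arrays (blue) and the 3 hSRY-ON arrays (red). Symbols mark the replicate, horizontal lines the group mean and bars ± 1 SD. For Fkbp5 the hSRY-OFF arrays lie between 6.998 and 7.38 and the hSRY-ON arrays between 9.52 and 10.90, while the groups of Dusp1 overlap and Nr3c1 is below detection on all 6 arrays.

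Fkbp5 encodes a co-chaperone that lowers the receptor's affinity for hormone and is a widely used readout of receptor activity. Its probe (ILMN_2718266) read 7.26, 7.38 and 6.998 on the hSRY-OFF arrays and 10.07, 10.90 and 9.52 on the hSRY-ON arrays. All 3 hSRY-ON pups were far above all 3 hSRY-OFF pups, and the gap between the groups was wider than the range within either. In the intensities as deposited the hSRY-OFF arrays held 299.4, 293.6 and 301.8 and the hSRY-ON arrays 1089.2, 2047.3 and 914.1, so the separation was present before any normalization. The rise was 2.95 ± 0.33 (SE, n = 3 and 3), or 7.71-fold with a 95% confidence interval of 4.51 to 13.2 (limma, adjusted p = 0.00201). It ranked 25 among the rises of the 13841 probes. Under 15 alternative settings the change ranged from 2.17 to 3.26 and was called in all 15.

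Tsc22d3 encodes GILZ, a leucine zipper protein through which glucocorticoids restrain NF-kB and AP-1. It has 2 probes on the array. The first (ILMN_2701664) read 9.13, 9.26 and 8.76 in hSRY-OFF and 11.34, 11.73 and 10.20 in hSRY-ON lungs. The second (ILMN_3150811) read 11.28, 11.35 and 11.56 in hSRY-OFF and 13.06, 13.01 and 12.20 in hSRY-ON lungs. For both probes the lowest hSRY-ON array was replicate 3, and it still exceeded every hSRY-OFF array. The first probe rose by 2.04 ± 0.38 (SE), or 4.11-fold (limma, adjusted p = 0.00994), and the second by 1.36 ± 0.24, or 2.57-fold (limma, adjusted p = 0.00853). Both probes were called under all 15 alternative settings. The changes of the 2 probes differed by 0.68, with a two-sided exact permutation p of 0.1, the smallest that this test can give for 3 against 3 arrays, so it could not have passed 0.05 and whether the changes differ was not settled.

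Klf9 encodes a Krüppel-like transcription factor that is induced early by glucocorticoids. It read 10.11, 9.997 and 9.95 in hSRY-OFF and 11.47, 12.20 and 10.91 in hSRY-ON lungs. The hSRY-OFF pups were nearly alike, and the hSRY-ON pups were all higher but spread over more than 1 unit. The rise was 1.51 ± 0.30 (SE), or 2.84-fold (limma, adjusted p = 0.0123), and it was called under all 15 alternatives, with adjusted p up to 0.0497.

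Sgk1 encodes a kinase that keeps the epithelial sodium channel at the cell surface. It read 13.55, 13.90 and 13.63 in hSRY-OFF and 14.28, 14.49 and 14.29 in hSRY-ON lungs. The groups did not overlap, and their spread was similar. Its rise, the smallest among the probes that were called, was 0.66 ± 0.14 (SE), or 1.58-fold (limma, adjusted p = 0.0152). The call was lost without hSRY-OFF replicate 1 (change 0.58, limma, adjusted p = 0.0708) and without hSRY-OFF replicate 3 (change 0.63, limma, adjusted p = 0.0588). It was kept under the other 13 alternatives.

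Errfi1 encodes a feedback inhibitor of the EGF receptor. Its values were 11.64, 12.16 and 12.20 in hSRY-OFF and 13.29, 13.65 and 12.44 in hSRY-ON lungs. Replicate 3 of hSRY-ON was close to the 2 highest hSRY-OFF pups, and the groups did not overlap. The rise was 1.13 ± 0.32 (SE), or 2.19-fold (limma, adjusted p = 0.0388). This call was the least stable of the group and was kept under 8 of 15 alternatives. Among arrays left out in turn it was kept without hSRY-ON replicate 3 (limma, adjusted p = 0.00642) and lost without hSRY-OFF replicate 1 (0.129), 2 (0.0921) or 3 (0.0760) and without hSRY-ON replicate 1 (0.0720) or 2 (0.101).

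Ddit4, also called Redd1, encodes an inhibitor of mTORC1 that glucocorticoids, hypoxia and energy stress induce. It read 9.51, 9.52 and 9.59 in hSRY-OFF and 10.41, 11.53 and 9.72 in hSRY-ON lungs. The hSRY-ON pups all lay above the hSRY-OFF pups, but replicate 3 did so by little and replicate 2 by much. The difference of 1.01 ± 0.41 (SE) had a 95% confidence interval of 0.04 to 1.98 and did not pass the adjusted threshold (limma, adjusted p = 0.109). Without hSRY-ON replicate 3 it was 1.43 and passed (limma, adjusted p = 0.0212), and without hSRY-ON replicate 2 it was 0.51 and did not.

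Dusp1 encodes a phosphatase that switches off MAP kinases and responds to glucocorticoids and, quickly, to growth factors and handling. It read 11.56, 12.68 and 12.33 in hSRY-OFF and 12.88, 12.77 and 11.94 in hSRY-ON lungs. The groups overlapped, and both held pups about 1 unit apart. The difference was 0.34 ± 0.35 (SE), with an interval of -0.48 to 1.16, which reaches up to a 2.23-fold rise (limma, adjusted p = 0.497). It stayed positive, from 0.03 to 0.63, and uncalled under all 15 alternatives.

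The receptor's own probe, for Nr3c1, averaged 4.87 in hSRY-OFF lungs (SD 0.24, n = 3) and 4.82 in hSRY-ON lungs (SD 0.09, n = 3), with detection p-values between 0.107 and 0.378. It was not detected on any of the 6 arrays, so no level and no change of the receptor transcript can be read from it, in either group. This describes the probe at this brightness and does not show that the receptor is absent.

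**Figure D2:**
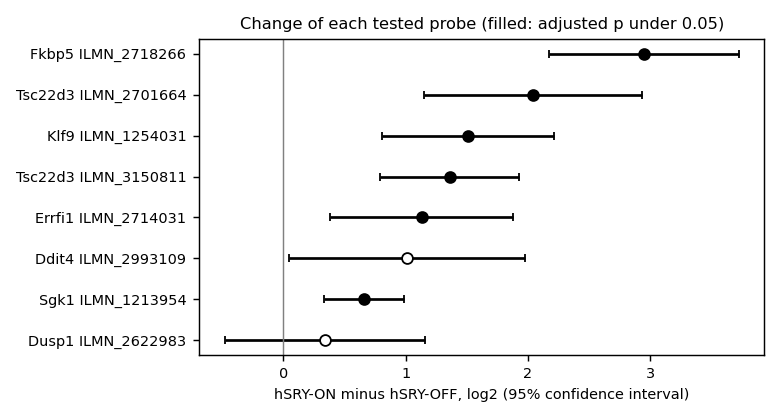
Difference between hSRY-ON and hSRY-OFF (log2, horizontal axis) for each of the 8 tested probes, with 95% confidence intervals, filled where the adjusted p was under 0.05. Fkbp5 has the largest difference, 2.95, and the interval of Dusp1, from -0.48 to 1.16, is the one that includes 0.

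Most of the target probes were highest and lowest on the same hSRY-ON arrays. Replicate 2 was the highest hSRY-ON array for 6 of the 8 tested probes (75%), and replicate 3 was the lowest for 7 of 8 (87.5%). Replicate 1 was highest for Dusp1 and for the second Tsc22d3 probe (ILMN_3150811), and lowest for Sgk1. Of the 6 target probes called higher, replicate 2 was highest for 5 and replicate 3 lowest for 5 (83.3% each). Among all probes called higher, replicate 2 was highest for 54.8% and replicate 3 lowest for 43%. Among all tested probes the shares were 33.7% and 30.9%. For Fkbp5 the distance above the hSRY-OFF mean was 2.85, 3.69 and 2.304 in replicates 1, 2 and 3. For Ddit4 it was 0.87, 1.99 and 0.17. The probes come from the same 3 arrays, so these shares describe 3 pups and are given without a test.

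The enzymes that set the local supply of hormone moved in opposite directions. Hsd11b1, which converts inactive 11-dehydrocorticosterone to corticosterone, rose on all 4 of its probes, and Hsd11b2, which does the reverse, fell. The brightest Hsd11b1 probe read 12.40, 12.59 and 12.79 in hSRY-OFF and 14.05, 14.22 and 13.87 in hSRY-ON lungs. It rose by 1.46 ± 0.15 (SE), or 2.75-fold (limma, adjusted p = 0.00175), and the other 3 probes by 1.32 to 1.51. The dimmest of the 4 (ILMN_3041149, 1.32) lost its call under 6 alternatives, among them no background correction, where the change was 0.49, and leaving out hSRY-OFF replicate 1 (change 1.36), 2 (1.20) or 3 (1.36) or hSRY-ON replicate 2 (1.42), while the other 3 kept theirs under all 15. Hsd11b2 read 7.56, 7.70 and 7.18 in hSRY-OFF and 4.55, 5.06 and 5.87 in hSRY-ON lungs, where it was detected on 1 of 3 arrays. It fell by 2.32 ± 0.33 (SE) on the log2 scale (limma, adjusted p = 0.00419). Since it lies near background in hSRY-ON, the size of this fall depends on the background correction, and it was -0.91 without one, still called. H6pd, which supplies the cofactor of Hsd11b1, differed by 0.32 and was not called (limma, adjusted p = 0.0605), though it was under 5 of 15 alternatives. The mineralocorticoid receptor Nr3c2 was not analysed here.

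**Figure D3:**
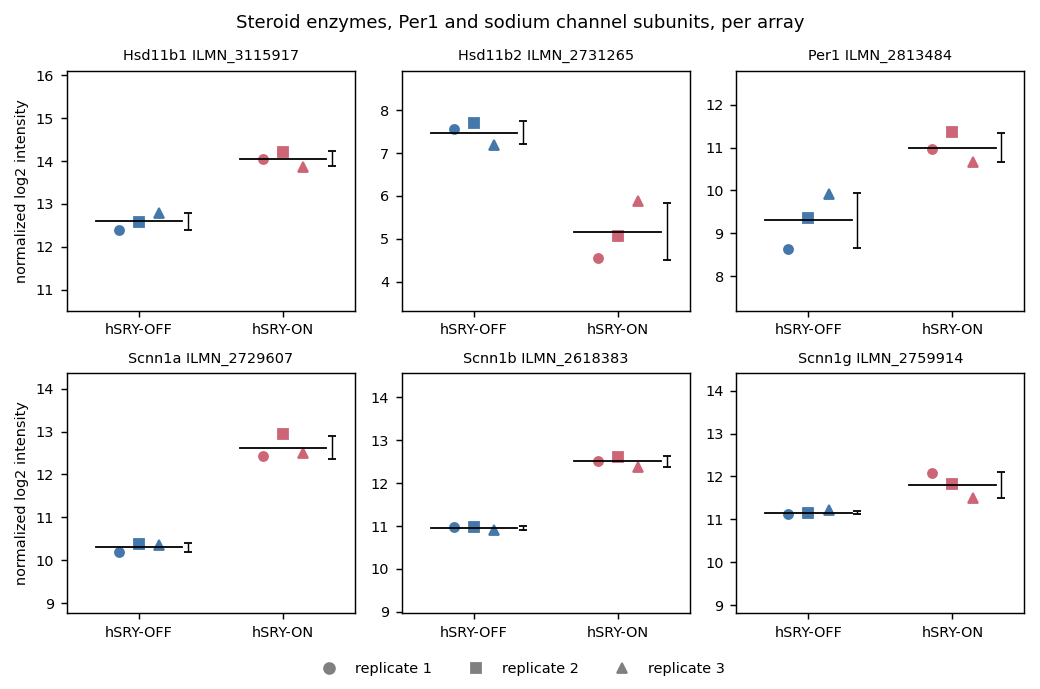
Normalized log2 intensity (vertical axes, each spanning the same range) of the brightest probe of Hsd11b1, Hsd11b2, Per1 and the 3 epithelial sodium channel subunits on each array, with the group mean as a line and ± 1 SD as a bar. Hsd11b1 is higher and Hsd11b2 lower on all 3 hSRY-ON arrays, and Scnn1a and Scnn1b separate the groups by 2.32 and 1.55.

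A wider list of genes known to be induced by glucocorticoids behaved likewise. Of 34 genes listed, 28 were tested, each by its brightest probe, and 18 were higher and 0 lower in hSRY-ON lungs, with 25 of 28 differences above 0 and a median of 0.96. At an unadjusted p under 0.05 these counts were 20 and 0 (limma), a level that at least 5656 of all 13841 tested probes passed in either direction. Over all 10292 genes tested 14.9% were called higher and 13% lower, with a median of -0.01. The list was chosen with earlier results of these data known, so its count is a description. Scnn1a, the alpha subunit of the epithelial sodium channel that clears fluid from the newborn lung, read 10.18, 10.38 and 10.35 in hSRY-OFF and 12.44, 12.94 and 12.50 in hSRY-ON lungs. It rose 5.0-fold (2.32 ± 0.16 SE, limma, adjusted p = 0.000598). Scnn1b, the beta subunit, rose by 1.55 (limma, adjusted p = 0.000691). The gamma subunit Scnn1g, named after its values were seen to complete the channel, rose by 0.64 (limma, adjusted p = 0.0309). Its call was lost without any 1 of the hSRY-OFF arrays (changes of 0.63, 0.64 and 0.67) or without hSRY-ON replicate 2 (0.63). Sgk1, described above, acts on the same channel.

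Elsewhere in that list, the phenol sulfotransferase Sult1a1 rose by 1.86 (limma, adjusted p = 0.000695), and the hypoxia-inducible factor Hif3a was at least 2.15-fold higher by 1 of its 2 probes (ILMN_2760494, limma, adjusted p = 0.000629). This probe was above background in all 3 hSRY-ON pups and in 0 hSRY-OFF pups, so it passed the detection filter through hSRY-ON alone, and its call is no independent support for the count of the list. With all probes tested and no filter, its adjusted p was 0.000685 (limma), and its fitted change of 1.81 was 0.59 without background correction. The list counts the probe with the higher mean over all 6 arrays, a mean that includes the rise, and the other Hif3a probe differed by 0.44 and was not called. Without Hif3a, 17 of 27 genes of the list were higher. Metallothionein 2, a metal-binding protein, read 5.95, 6.19 and 6.02 in hSRY-OFF and 7.50, 7.75 and 7.18 in hSRY-ON lungs. It rose by 1.42 (limma, adjusted p = 0.00246), though by 0.63 without background correction. Per1, a clock gene with glucocorticoid response elements of its own, read 8.63, 9.35 and 9.92 in hSRY-OFF and 10.97, 11.36 and 10.67 in hSRY-ON lungs on the brighter of its 2 probes. It rose by 1.70 (limma, adjusted p = 0.0117), and its other probe by 1.87. Further genes, chosen after their values were seen, were Pdk4, the kinase that closes the entry of pyruvate into oxidation, which had the largest rise of the list (3.29, limma, adjusted p = 0.00477), and Mt1, which rose by 1.31 (limma, adjusted p = 0.00316). Pdk4 ranged in hSRY-ON from 8.95 in replicate 3 to 11.08 in replicate 2, again with replicate 3 lowest. With hSRY-OFF replicate 1 or 2 left out, 11 genes of the list were called in place of 18.

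**Figure D4:**
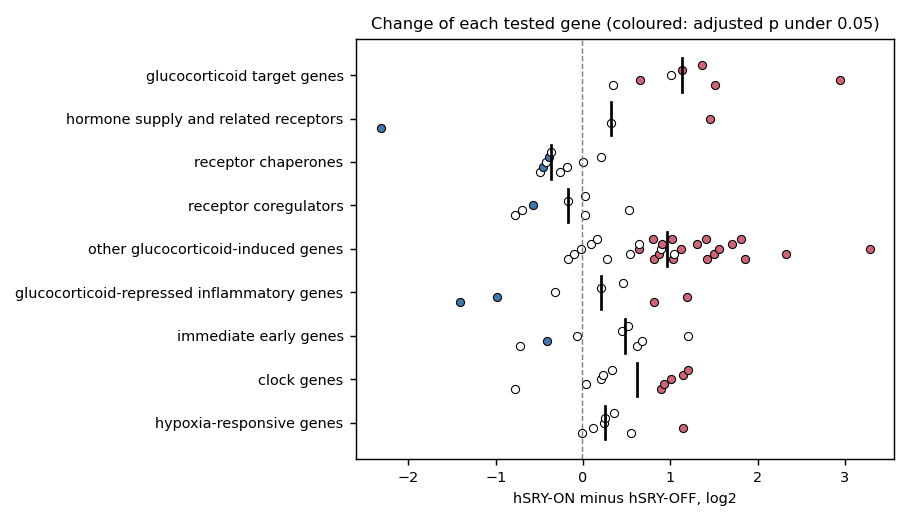
Difference between hSRY-ON and hSRY-OFF (log2, horizontal axis) of each tested gene, by list, with the brightest probe of each gene. Coloured points passed the test (red higher, blue lower), open points did not, black bars are list medians and the dashed line is the median of all tested genes. The targets and the other induced genes lie mainly right of the line, with medians of 1.13 and 0.96, and the chaperones mainly left of it, at -0.37.

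No rise passed the test among the chaperones that hold the receptor in its hormone-binding state. Of 9 tested genes, 0 were higher and 2 lower, Hsp90ab1 and Stip1, with a median of -0.37. At an unadjusted p under 0.05 the counts were 0 and 4 (limma), a level that at least 5656 of all 13841 tested probes passed in either direction. Over all genes tested 14.9% were called higher and 13% lower, and with 9 genes the counts of 0 and 2 are near those shares. Stip1, which passes clients from Hsp70 to Hsp90, fell by 0.46 on the log2 scale (limma, adjusted p = 0.0294). Hsp90ab1 fell on each of its 3 probes, by 0.39, 1.05 and 0.62. The brightest of these lost its call under 8 of 15 alternatives, and was -0.19 under median scaling. It was lost without any 1 hSRY-OFF array (-0.36, -0.35 and -0.46 without replicates 1, 2 and 3) and without hSRY-ON replicate 2 (-0.37) or 3 (-0.39). The probe that fell by 0.62 lost its call without hSRY-OFF replicate 1 (-0.56) or 2 (-0.60) or hSRY-ON replicate 2 (-0.50), and the one that fell by 1.05 kept it under all 15. The Stip1 call was lost under 5, among them median scaling (-0.34) and each hSRY-OFF array left out (-0.42, -0.48 and -0.48). Of 7 receptor coregulators tested, 0 were higher and 1 lower, the chromatin remodeller Smarca4 (-0.58, limma, adjusted p = 0.0327), with 1 and 3 at an unadjusted p under 0.05. That call too was lost without any 1 hSRY-OFF array (-0.53, -0.57 and -0.65) or without hSRY-ON replicate 2 (-0.58).

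Inflammatory genes that glucocorticoids repress were mixed. Of 7 tested, 2 were higher and 2 lower, where 14.9% of all genes tested were called higher and 13% lower. With 7 genes these counts are not far from those shares. The adhesion molecule Vcam1 fell from 11.79, 11.86 and 11.72 in hSRY-OFF to 10.84, 10.52 and 11.06 in hSRY-ON lungs (-0.98, limma, adjusted p = 0.00643), and the chemokine Ccl5 fell by 1.41 (limma, adjusted p = 0.0183). In contrast Il1b, the interleukin-1 beta gene, was 7.20, 7.33 and 7.09 in hSRY-OFF and 7.91, 8.55 and 8.75 in hSRY-ON lungs, a rise of 1.19 (limma, adjusted p = 0.0101). The neutrophil-attracting Cxcl1 rose by 0.81 (limma, adjusted p = 0.0178). The Ccl5 call was lost without hSRY-OFF replicate 2 (-1.30) or 3 (-1.22) or hSRY-ON replicate 2 (-1.17), and that of Cxcl1 without hSRY-OFF replicate 2 (0.83) or 3 (0.69). Without background correction the changes of Il1b, Cxcl1 and Ccl5 were 0.74, 0.46 and -0.50.

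Clock, immediate early and hypoxia-responsive genes, which share inducers with the targets, were also counted. Of 10 clock genes tested 5 were higher and 0 lower, with Tef (1.15, limma, adjusted p = 0.0012), Per2 (1.01, limma, adjusted p = 0.00579), Npas2 (0.93, limma, adjusted p = 0.0130) and Nr1d1 (1.20, limma, adjusted p = 0.0182) having the smallest p. At an unadjusted p under 0.05 the counts were 5 and 1 (limma). Each unadjusted count in this paragraph has a wide background, as at least 5656 of all 13841 tested probes passed that level in either direction. Of the 3 Per2 probes, 1 dim probe was not called (0.50). Nr1d1 lost its call without hSRY-OFF replicate 2 (1.09) or 3 (1.15) or hSRY-ON replicate 2 (1.14), and without background correction the changes of Npas2 and Nr1d1 were 0.37 and 0.47. The time of day at dissection is not given in the sources used here. Of 8 immediate early genes, which respond to handling within minutes as Dusp1 does, 0 were higher and 1 lower, Egr2 (-0.41, limma, adjusted p = 0.0411), a call kept under 4 of 15 alternatives and lost without any 1 hSRY-OFF array or hSRY-ON replicate 2 or 3 (-0.44 to -0.34). Its change was -0.14 without background correction, and at an unadjusted p under 0.05 the immediate early genes numbered 2 higher and 1 lower (limma). Of 7 hypoxia-responsive genes, which like Ddit4 respond to low oxygen, 1 was higher, the glucose transporter Slc2a1 (1.15, limma, adjusted p = 0.00504), and 0 were lower, with 2 and 0 at an unadjusted p under 0.05. Calls of 1 in 7, as for the hypoxia genes and the coregulators, are near the shares over all genes, 14.9% higher and 13% lower.

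Some markers of immune cells differed in the same contrast, macrophage and neutrophil markers upward and lymphocyte markers downward. Of 7 macrophage markers tested 5 were higher, while Emr1 and Csf1r were not called. Over all genes tested 14.9% were called higher and 13% lower. The log2 of the summed macrophage level was 14.59 to 14.71 in hSRY-OFF and 15.09 to 15.37 in hSRY-ON lungs. Lyz2 made up most of this sum, at 14.35 to 14.51 and 14.79 to 14.93, so the sum mainly follows that gene. Of 5 neutrophil markers 3 were higher, with sums of 12.22 to 12.39 and 13.06 to 14.88, and Ngp and Camp were not called. In hSRY-ON replicate 1 Ngp (6.19) and Camp (6.70) lay below every hSRY-OFF array. S100a8 made up most of the neutrophil sum, at 11.82 to 11.94 in hSRY-OFF and 12.625 to 14.25 in hSRY-ON lungs. Of 5 lymphocyte markers that were detected in both groups 4 were lower and Cd79b was not called. Of 2 thymocyte markers tested Cd8b1 was lower (-2.23) and Ptcra was not called (-0.26). The other 4 of the 6 listed thymocyte genes were not detected on any array. The thymocyte sums were 8.72 to 8.98 in hSRY-OFF and 7.69 to 8.16 in hSRY-ON lungs. The brighter Cd8b1 probe read 7.93 to 8.21 and 5.35 to 6.73, so the difference between these sums mainly follows that gene. The neutrophil sum was highest on the array of hSRY-ON replicate 3 (14.88), where most of the glucocorticoid targets were at their lowest for that group, and the macrophage sum was highest on that of replicate 2 (15.37), as were most targets. The 2 liver markers tested, Apoa1 and Ahsg, were each above background in all 3 hSRY-ON pups and in 0 hSRY-OFF pups, and so passed the filter only through the group where they are high. The liver sums were 7.90 to 8.04 and 8.44 to 9.23, and 4 of the 7 listed liver genes were not detected on any array. The part of these cells in the changes of the target genes was not tested. Of 7 cardiac muscle markers 1 was higher and 2 lower. Of 4 erythroid and 4 skeletal muscle markers 0 were called (limma), with 1 of each at an unadjusted p under 0.05. That level was passed by at least 5656 of all 13841 tested probes, in either direction. The erythroid gene Hba-a1 was the brightest probe on every array, where quantile normalization gives it 1 fixed value, so it could not be called. Of the lung markers 2 were higher and 1 lower. Their sums were 17.16 to 17.23 in hSRY-OFF and 17.26 to 17.35 in hSRY-ON lungs.

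The genes whose values most resembled those of Fkbp5 over the 6 arrays were Aldh3a1, an aldehyde dehydrogenase, Tspan11, a tetraspanin, and Map3k6, a MAP kinase kinase kinase. After each probe was centred on its own mean, the root mean square difference from Fkbp5 was 0.182, 0.270 and 0.309 log2 units. Aldh3a1 read 8.06, 7.86 and 8.08 in hSRY-OFF and 10.86, 11.54 and 10.34 in hSRY-ON lungs, with the same order of the hSRY-ON pups as Fkbp5. The changes of the 3 genes, 2.91, 2.99 and 2.54, follow from how they were chosen and are given as a description.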

How the data were processed

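Total RNA from the lungs of 3 hSRY-OFF and 3 hSRY-ON male pups, 1 pup per array, was turned into biotin-labelled cRNA for MouseRef-8 v2.0 BeadChips. The authors deposited for each probe and array an intensity, neither background-corrected nor normalized, and a detection p-value. The bead summary software is not given in the sources used here. The study names TCC, a count-based package, and limma 3.58.1 (R 4.3.3) was used in its place because the values are intensities. The detection p-values served to estimate the background, 16 was added as an offset, and the arrays were quantile-normalized on the log2 scale. The offset compresses dim probes, and quantile normalization removes overall shifts. Probes detected (p under 0.05) on 3 or more of the 6 arrays (13841 of 25697) were compared with lmFit and eBayes, two-sided and without covariates, and their p-values were adjusted by Benjamini-Hochberg. Lists count the brightest tested probe of each gene, with symbols matched through RefSeq synonyms. Their sums take every probe. For a bound, the undetected group's value on each array is the lowest signal of any detected probe, or the probe's own signal if that is higher.

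The members and lists were chosen with earlier results of these data known. Named genes are all members, up to 4 called genes with the smallest p of each companion list of regulators or responses, Hsd11b1, Hsd11b2, Nr3c2, Per1 and Mt2, and the 3 genes closest to Fkbp5. Cell marker lists are given as counts and sums, and markers are named where they limit a count or a sum. A marker gene is not reported here. The method was tested on simulated data in which 200 probes changed and both groups had the same spread. In the real arrays more probes were called and hSRY-ON spread more, so the simulation does not speak to the calls given here. Alternatives were other background corrections, normalizations, filters and variance models, array weights, a replicate block and leaving out each array.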

Additional observations from a re-analysis of the deposited data

How the results depend on the processing

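Across 15 alternatives the changes of the 8 tested target probes gave 120 values, of which 0 reversed, 9 lost the call (2 of Sgk1, 7 of Errfi1) and 1, of Ddit4, gained it. The number of probes called was 6, and 5 without the detection filter. It ranged from 4 to 7 when 1 array was left out. The other glucocorticoid-induced genes called numbered 18, 16 to 20 under settings that kept all arrays and 11 to 21 with 1 left out. Over all probes 3729 were called, and 1507 (without hSRY-OFF replicate 1) to 4385 (without hSRY-ON replicate 1) with 1 array left out. The cause of these shifts was not tested beyond the loss of an array.

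Replicate numbers are shared between the groups, and whether they pair the pups is not known here. The correlations of same-numbered deviations were weak, at -0.107, 0.0958 and -0.0927. They cannot decide the question, because no correlations of differently numbered arrays are given for comparison. With the replicate block the calls were 5 target probes, 16 other induced genes and 2657 probes in all. Errfi1 was the target that lost its call under the replicate block (limma, adjusted p = 0.0587), and it was also lost without the detection filter (0.0615). Probes near background, such as those of Nr3c1 and Hsd11b2, are limited by their signal.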
